A study of Mus musculus with 8 samples.

Results

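Nicotinamide nucleotide transhydrogenase (*Nnt*) and 8 genes of the NRF2-type antioxidant response were followed in the mouse pancreas, 9 of the 48709 genes in each deposited file. *Nnt* was chosen by its measured RPKM difference between the genotypes in these libraries, and the other members (*Hmox1*, *Nqo1*, *Gclc*, *Gclm*, *Txnrd1*, *Srxn1*, *Slc7a11* and *Sod2*) were picked as antioxidant genes to set beside it. All 8 libraries entered that choice, so the values of *Nnt* are given as a description, with no test. The SE beside them describes the spread between libraries and is no measure of evidence, since *Nnt* was picked on the same values.

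RNA-Seq was run on whole pancreas of male mice aged 8 weeks, 24 h after either saline or induction of alcohol-type severe acute pancreatitis (FAEE-SAP) with ethanol and the fatty acid palmitoleic acid (POA). WT mice were compared with cKO mice, in which Cre under the *Pdx1* promoter removes a floxed region of *Pfkfb3*, a regulator of glycolysis. Each of the 4 groups (WT saline, cKO saline, WT FAEE-SAP and cKO FAEE-SAP) held 2 libraries, which the labels call biological replicates without naming the animals. Library totals worked out from the values ran from 22.9 to 37.7 M reads. *Pdx1*-Cre acts in the pancreatic epithelium, so stromal and immune cells kept an intact gene. The floxed line was made in C57BL/6J eggs and bred to C57BL/6J mice, the *Pdx1*-Cre mice came from a commercial supplier, and the WT mice were bought from another supplier with no strain named. The groups were not stated to be littermates, so the floxed allele, Cre and the source of the mice cannot be told apart. Gene-level *Pfkfb3* overlapped between the genotypes, at 0.885 and 2.11 scaled RPKM (reads per kilobase and per unit of library depth, rescaled between libraries) in cKO saline against 1.71 and 1.70 in WT saline, and at 1.74 and 2.84 in cKO FAEE-SAP against 1.86 and 3.23 in WT FAEE-SAP. A whole-gene value also counts the exons that Cre leaves in place, so it does not check the deletion.

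NNT sits in the inner mitochondrial membrane and uses the proton gradient to make NADPH, which mitochondrial glutathione and thioredoxin systems need to remove peroxides. C57BL/6J mice are known to carry a multi-exon deletion in *Nnt* that other strains lack. NRF2 (*Nfe2l2*) is a transcription factor that KEAP1 holds for degradation until oxidants modify KEAP1, after which NRF2 and a small MAF partner bind antioxidant response elements (ARE). Its classical targets break down heme (*Hmox1*), reduce quinones (*Nqo1*), make glutathione (the subunits *Gclc* and *Gclm*), import cystine for it (*Slc7a11*) and keep thioredoxin and peroxiredoxins reduced (*Txnrd1*, *Srxn1*). *Sod2* encodes the mitochondrial superoxide dismutase and also answers to inflammatory signals.

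The promoters of 4 members are shown because they hold an ARE core in the printed stretch before the start, among them *Srxn1*, which passed the test after FAEE-SAP in WT but not in cKO, and *Gclm*, which passed in neither. RefSeq entries on GRCm38.p6 were matched for 6 of the 9 members. The capitals mark ARE cores, TGACNNNGC or TGAGNNNGC on either strand.
Srxn1, chr2:152105274-152105523, plus strand: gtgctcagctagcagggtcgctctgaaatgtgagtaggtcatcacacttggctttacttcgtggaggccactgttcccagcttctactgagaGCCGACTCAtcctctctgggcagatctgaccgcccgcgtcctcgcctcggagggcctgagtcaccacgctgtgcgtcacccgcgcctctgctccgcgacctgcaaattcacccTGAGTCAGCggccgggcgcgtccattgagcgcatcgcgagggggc
Gclm, chr3:122245307-122245556, plus strand: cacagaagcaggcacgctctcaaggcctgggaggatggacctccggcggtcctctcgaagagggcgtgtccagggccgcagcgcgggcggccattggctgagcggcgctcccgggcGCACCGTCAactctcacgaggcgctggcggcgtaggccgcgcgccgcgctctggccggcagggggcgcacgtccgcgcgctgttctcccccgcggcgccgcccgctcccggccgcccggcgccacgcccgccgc
Txnrd1, the second of its start sites, chr10:82858956-82859205, plus strand: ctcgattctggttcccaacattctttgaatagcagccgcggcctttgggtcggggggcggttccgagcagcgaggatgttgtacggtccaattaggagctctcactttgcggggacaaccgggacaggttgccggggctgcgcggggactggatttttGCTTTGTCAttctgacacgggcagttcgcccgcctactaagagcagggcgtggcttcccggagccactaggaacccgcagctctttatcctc
Slc7a11, chr3:50443614-50443863, minus strand: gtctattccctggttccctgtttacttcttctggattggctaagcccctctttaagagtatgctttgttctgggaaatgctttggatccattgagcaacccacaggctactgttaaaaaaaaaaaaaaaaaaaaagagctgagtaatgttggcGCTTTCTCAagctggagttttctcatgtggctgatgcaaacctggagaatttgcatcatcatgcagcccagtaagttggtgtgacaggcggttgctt
*Srxn1* held 2 cores before its start, and the one nearer the start, TGAGTCAGC, overlapped an AP-1 site (TGANTCA). No core lay in these windows of *Nqo1* and *Sod2*. Such matches are common, since in windows that also took in some bases after the start 27.79% of all 32851 RefSeq promoters held a core and 7.808% held the AP-1 site, so a match is a description of the letters and not a binding site.

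*Nnt* was highest in cKO saline and lowest in WT FAEE-SAP. Its level was at 1.64 and 1.61 scaled RPKM in WT and 4.17 and 4.34 in cKO mice given saline, and at 0.418 and 0.329 (WT) and 2.003 and 1.87 (cKO) with FAEE-SAP. No group overlapped another, and both cKO FAEE-SAP libraries stood above both WT saline libraries. Between genotypes, 51.9% of all genes tested with FAEE-SAP and 28.3% with saline did not overlap either. The fitted difference of cKO from WT was 1.29 on the log2 scale (SE 0.15, 2.44-fold) with saline and 2.17 (SE 0.25, 4.50-fold) with FAEE-SAP. Without rescaling (values as deposited) the differences were 1.03 and 1.30, and at a pseudocount of 1 they were 0.88 and 1.28. These values rested on 136 to 684 reads per library.

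**Figure D1:**
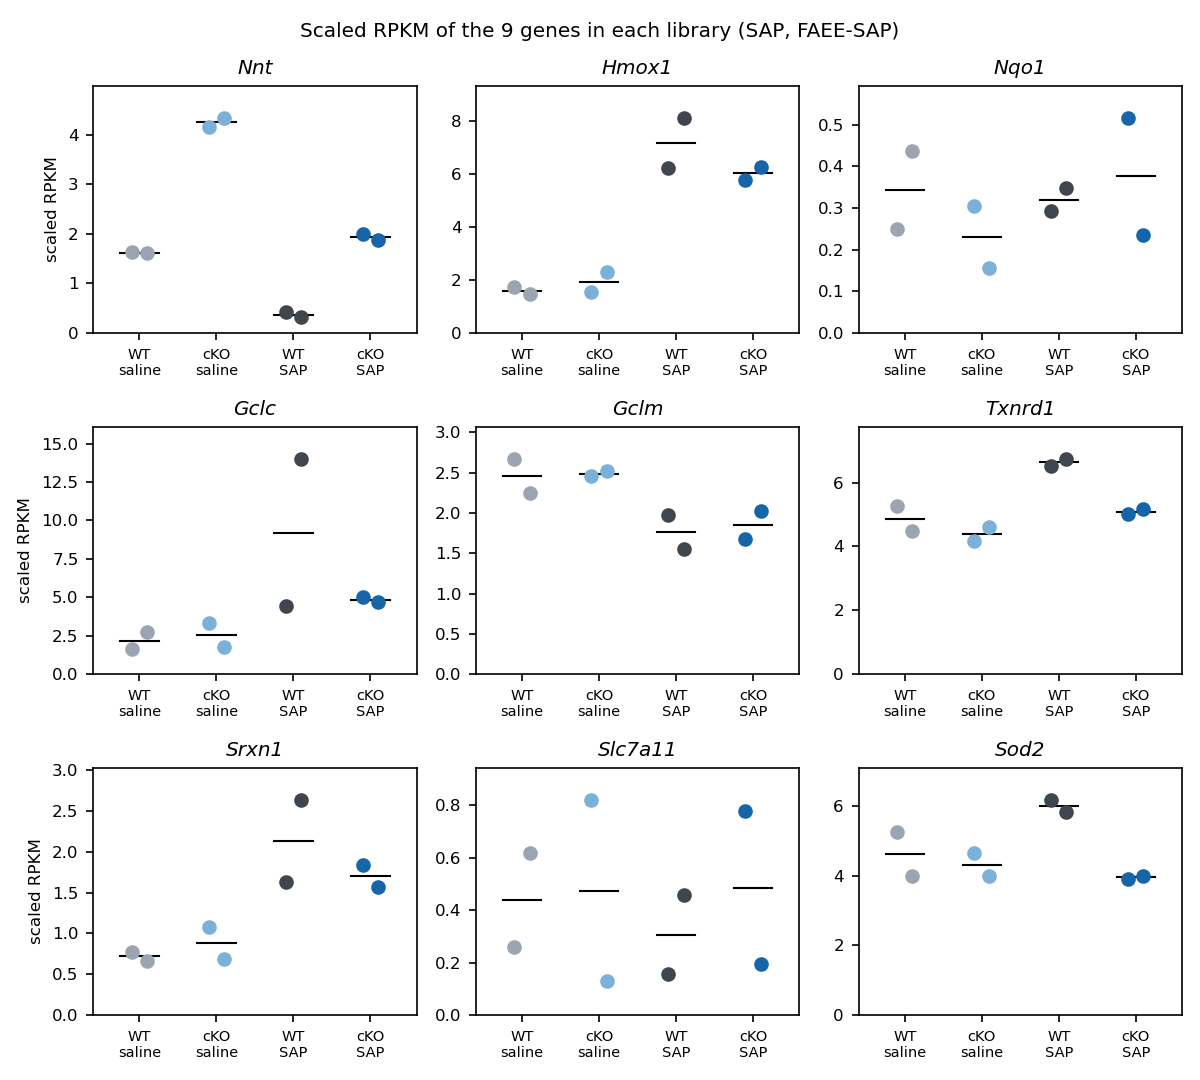
Scaled RPKM (vertical axis, linear and starting at 0, each gene on its own scale) of the 9 genes in the 4 groups on the horizontal axis. Each point is 1 library and each bar the mean of 2. The *Nnt* points form 4 separate groups with cKO above WT under both treatments, while both FAEE-SAP groups stand above both saline groups for *Hmox1*.

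With FAEE-SAP, *Nnt* was lower than with saline in both genotypes. The difference was -1.92 on the log2 scale in WT (SE 0.24, 3.79-fold) and -1.06 in cKO (SE 0.17, 2.08-fold), or -0.73 and -0.46 as deposited. In a separate fit of all 8 libraries on 1 common scaling, where the *Nnt* genotype difference was 2.11 with FAEE-SAP and 1.33 with saline, the first exceeded the second by 0.77 (SE 0.25). That excess was 0.27 as deposited and ran from 0.096 to 1.01 over 18 alternatives of this fit.

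Ratios within a library do not depend on how libraries are scaled. *Nnt* RPKM over that of *Sod2*, chosen after the values were seen, was 0.312 and 0.404 in WT saline and 0.898 and 1.09 in cKO saline. After FAEE-SAP it stood at 0.0678 and 0.0563 in WT libraries, against 0.512 and 0.468 in cKO libraries. The order of the groups was that of the *Nnt* levels, but *Nnt* is the numerator, so the ratio is no separate support for its differences. *Sod2* ran against *Nnt* over the 8 libraries (Pearson r = -0.761), which widens this ratio. *Idh2* makes mitochondrial NADPH from isocitrate and was likewise picked with earlier results of these data known. Against *Idh2* the ratio ran from 0.0409 to 0.0533 in WT FAEE-SAP and from 0.106 to 0.109 in WT saline. In cKO it ran from 0.146 to 0.194 with FAEE-SAP and from 0.280 to 0.313 with saline.

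*Nnt* lies on GRCm38 chr13:119335448-119408997, minus strand, and GENCODE vM21 lists 2 gene IDs under this symbol. GRCm38 is a C57BL/6J assembly, and the longest coding model of the gene there has 17 exons and 835 residues. Gene-level RPKM give no value per exon, so whether any library carried the strain deletion was not tested. None of the 5 tested genes on each side of *Nnt* was called in any of the 4 comparisons between groups, in which 0% to 6.93% of all genes were called, so the count is near the share over all genes. Their genotype differences ran from -0.44 (*Paip1*) to 0.53 (*Itga1*) on the log2 scale with FAEE-SAP and from -0.32 (4833420G17Rik) to 0.20 (*Paip1*) with saline, where *Parp8* and *Tmem267* lay under the minimum level.

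**Figure D2:**
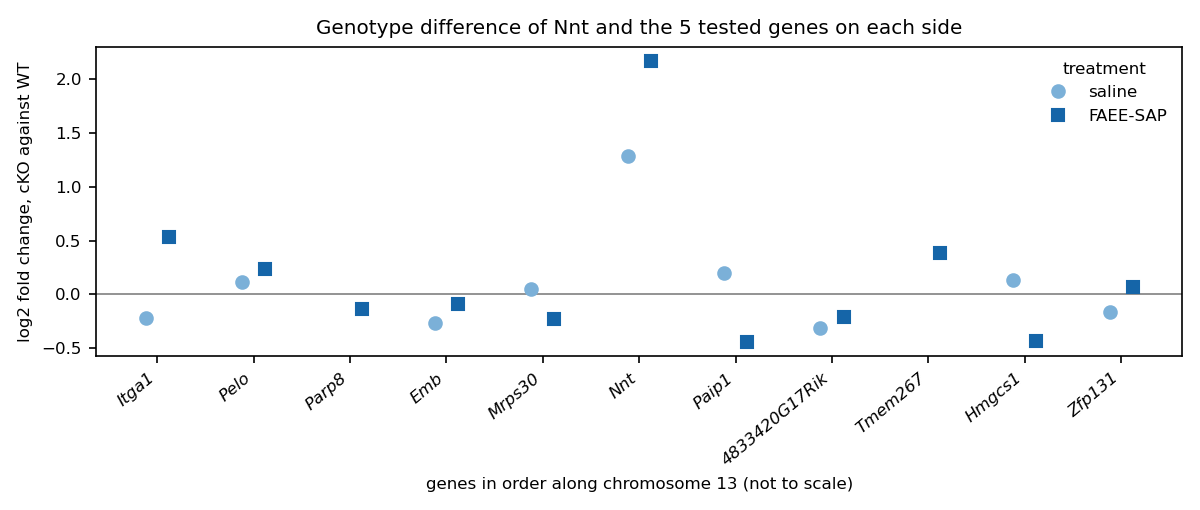
Log2 fold change of cKO against WT (vertical axis) for *Nnt* and the 5 tested genes on each side, in order along the chromosome (horizontal axis, not to scale). Circles are saline, squares FAEE-SAP, and each is a difference of 2 libraries from 2. *Nnt*, picked for this difference, stands at 1.29 and 2.17, and the neighbours lie between -0.44 and 0.53.

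The genes whose log2 scaled RPKM over the 8 libraries was most like that of *Nnt*, out of 11132 compared, were *Oxct1* (Pearson r = 0.990), *Dpp7* (0.987), *Ndufc2* (0.978), *Car11* (0.977) and *Hibadh* (0.974). *Oxct1*, which activates ketone bodies for use in mitochondria, had mean scaled RPKM of 2.97 (WT) and 4.38 (cKO) with saline and of 1.31 (WT) and 3.03 (cKO) with FAEE-SAP. Its spread between groups was smaller than that of *Nnt*. The 8 libraries share their groups, so these are descriptions with no p.

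*Hmox1* was higher with FAEE-SAP than with saline in both genotypes, and the difference passed the test in WT. Its level was 1.72 and 1.48 scaled RPKM in WT saline against 6.24 and 8.12 in WT FAEE-SAP. The cKO libraries read 1.54 and 2.31 with saline and 5.80 and 6.28 with FAEE-SAP. Both FAEE-SAP groups lay wholly above both saline groups. Between treatments, 58.8% of all genes tested in WT and 43.2% in cKO did not overlap either. In WT *Hmox1* rose by 2.10 on the log2 scale (SE 0.23, 4.28-fold), with an adjusted p of 0.00878 by limma with Benjamini-Hochberg adjustment. As deposited the rise was 3.38. Without WT FAEE-SAP replicate 2 the call was lost (adjusted p = 0.0601 in limma), and it held in the other 15 of 16 alternatives. In cKO the value was 1.64 (SE 0.24, 3.12-fold), with an adjusted p of 0.231 by limma, and it was called under 1 alternative, the replicate block.

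*Srxn1*, which repairs overoxidised peroxiredoxins, was at 0.776 and 0.662 scaled RPKM in WT saline and 1.63 and 2.63 in WT FAEE-SAP. The groups did not overlap. It rose by 1.43 (SE 0.30, 2.69-fold) in WT with an adjusted p of 0.0455 by limma, close to the threshold of 0.05, and by 2.65 as deposited. The call held under 6 of 16 alternatives and was lost when any single WT library was left out. In cKO it was at 1.08 and 0.683 with saline and 1.84 and 1.57 with FAEE-SAP, a difference of 0.92 (SE 0.27) with an adjusted p of 0.443 by limma. The thioredoxin reductase *Txnrd1* was at 5.25 and 4.49 in WT and 4.18 and 4.59 in cKO mice given saline, and at 6.53 and 6.73 (WT) and 5.0 and 5.16 (cKO) with FAEE-SAP. Its FAEE-SAP libraries lay above the saline libraries of the same genotype, and the fitted differences of 0.44 in WT and 0.24 in cKO did not pass the test. A lack of overlap between treatments was common, at 58.8% of all genes tested in WT and 43.2% in cKO.

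The subunits of glutamate-cysteine ligase, the first enzyme of glutathione synthesis, differed in their values after FAEE-SAP. The catalytic subunit *Gclc* was at 1.61 and 2.72 scaled RPKM in WT saline, 3.31 and 1.74 in cKO saline, 4.99 and 4.69 in cKO FAEE-SAP, and 4.40 and 13.98 in WT FAEE-SAP. WT FAEE-SAP replicate 2 alone set the high WT mean. The differences from saline were 1.86 (SE 0.56, adjusted p = 0.0997 by limma) in WT and 1.0 (SE 0.33, adjusted p = 0.488 by limma) in cKO. In WT *Gclc* passed under 3 of 16 alternatives (values as deposited, the replicate block and without WT FAEE-SAP replicate 1), and over all 16 its log2 value ran from 1.08 to 3.15. The modifier subunit *Gclm* was at 2.67 and 2.25 in WT and 2.45 and 2.52 in cKO mice given saline, and at 1.98 and 1.56 (WT) and 1.68 and 2.02 (cKO) with FAEE-SAP. It was lower with FAEE-SAP than with saline by the scaled values, at -0.47 in WT (SE 0.23, adjusted p = 0.258 by limma) and -0.38 in cKO (SE 0.17, adjusted p = 0.559 by limma), but 0.81 and 0.21 by the values as deposited, so its direction depends on the scaling. The ratio of *Gclc* to *Gclm* RPKM within a library, chosen after the values were seen and free of that scaling, was 0.602 and 1.21 in WT saline and 1.35 and 0.691 in cKO saline. After FAEE-SAP it was 2.22 and 8.98 (WT) and 2.98 and 2.32 (cKO), so all 4 FAEE-SAP libraries had more *Gclc* than any saline library relative to *Gclm*. With 2 libraries a side, an exact permutation test of either genotype could not go below a two-sided p of 0.33, so none was run.

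*Sod2* was at 5.25 and 3.99 scaled RPKM in WT and 4.64 and 3.99 in cKO mice given saline, and at 6.17 and 5.84 (WT) and 3.91 and 3.999 (cKO) with FAEE-SAP. The WT FAEE-SAP libraries were the highest, and those of cKO FAEE-SAP lay within the range of the saline libraries or just under it. cKO differed from WT by -0.60 with FAEE-SAP (SE 0.19, 95% interval -1.08 to -0.12), with an unadjusted p of 0.0217 and an adjusted p of 0.186 by limma, which did not pass. *Slc7a11*, the cystine transporter, spread more within groups than between them, from 0.130 to 0.820 in cKO saline and from 0.155 to 0.458 in WT FAEE-SAP. *Nqo1* stayed between 0.155 and 0.515 scaled RPKM in every library, on 5 to 34 reads, and lay under the minimum level in 2 comparisons. In WT after FAEE-SAP its difference was -0.06 (adjusted p = 0.933 by limma), or 0.99 as deposited (adjusted p = 0.0381 by limma), just under a 2-fold change. It entered that comparison only through the WT FAEE-SAP libraries.

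Of the 8 NRF2-type genes, 2 (*Hmox1* and *Srxn1*) were called higher in WT after FAEE-SAP, where 6.93% of all genes tested were called in either direction. The median of the 8 was 0.41 on the log2 scale, against 0.02 over all genes tested. In cKO none of the 7 tested was called, with 3 at an unadjusted p under 0.05 in limma and a median of 0.24 against -0.01, where 0.0531% of all genes were called. Of all 9423 genes tested there, 888 had an unadjusted p under 0.05 in limma. Between cKO and WT, none of 8 was called with FAEE-SAP (1 at an unadjusted p under 0.05, *Sod2*) and none of 7 with saline (0 at an unadjusted p under 0.05), where 1.27% and 0% of all genes were called. An unadjusted p under 0.05 in limma was reached by 2148 of all 11008 genes tested with FAEE-SAP and by 187 of 8715 with saline. The weighted limma model on reads also called none in these 3 comparisons. As deposited, 5 of the 8 (*Hmox1*, *Gclc*, *Txnrd1*, *Srxn1* and *Sod2*) were called lower in cKO than in WT with FAEE-SAP, where 4427 of 11008 genes were called, and the same 5 were called higher in WT after FAEE-SAP, where 7270 of 10894 were. For the test of whether the response differed between genotypes, none of 8 was called, the weighted model called none and 0.0719% of all genes were called. There 0 of the 8 had an unadjusted p under 0.05 in limma, against 1398 of all 11133 genes tested. The difference of the *Hmox1* response had a 95% interval of -1.25 to 0.32 on the log2 scale. Libraries did not overlap between treatments for 6 of the 8 in WT and 5 in cKO, against 58.8% and 43.2% of all genes tested. Between genotypes this held for 2 with FAEE-SAP and 0 with saline, against 51.9% and 28.3%. These comparisons share libraries, so their values stand side by side and are not independent.

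**Figure D3:**
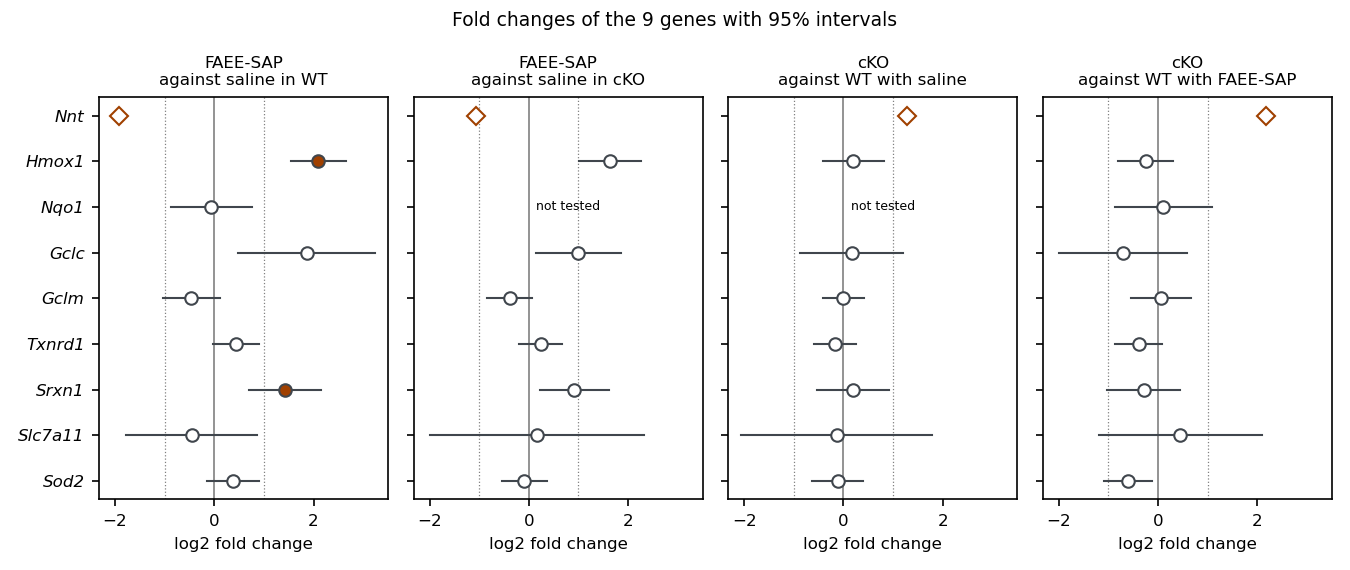
Log2 fold change (horizontal axis) of the 9 genes in 4 comparisons, with bars for the 95% interval of limma and dotted lines at a 2-fold change. Filled circles passed the test, open circles did not, and open diamonds are *Nnt*, described without a test or an interval. In WT after FAEE-SAP *Hmox1* stands at 2.10, *Srxn1* at 1.43 and *Nnt* at -1.92, and the genotype differences of the other genes lie between -0.70 and 0.45.

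The scaling mattered for these directions. As deposited, RPKM of the median gene tested differed by 1.24 on the log2 scale between WT FAEE-SAP and WT saline, by 0.57 between the cKO groups, by -0.91 between cKO and WT with FAEE-SAP and by -0.25 with saline. The marker sums below are of scaled values, divided by factors of 2.01 and 1.93 in WT FAEE-SAP and of 0.618 to 0.862 with saline. Part of their differences between groups therefore comes from that divisor, and sums as deposited were not worked out. The 10 acinar markers summed to 68772 and 70612 scaled RPKM in WT FAEE-SAP, to 165037 and 184202 in cKO FAEE-SAP, and to between 202026 and 273447 in the saline libraries. All changes were read relative to the median gene. The 8 neutrophil markers summed to 58.9 and 53.4 in WT FAEE-SAP, 19.9 and 12.5 in cKO FAEE-SAP and 1.28 to 3.74 with saline, with 1 or 2 of them at 0 in each library, and the 8 duct markers to 203 and 229, 123 and 158, and 78.6 to 94.4. The 8 macrophage markers summed to between 74.6 and 133 in all libraries. The 6 islet markers summed to 163 and 216 in WT FAEE-SAP and to between 272 and 430 in the others, while the lymphoid, adipocyte, fibroblast, endothelial and red blood cell sums of WT FAEE-SAP overlapped the range of the other libraries. In whole tissue, fewer cells of a type cannot be told apart from less RNA per cell, and the part of these cell types in the member values was not tested.

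No regulator of the pathway was called by the scaled values. *Nfe2l2* itself was at 3.50 and 2.73 scaled RPKM in WT and 2.63 and 3.04 in cKO mice given saline, and at 5.13 and 6.20 (WT) and 3.64 and 3.45 (cKO) with FAEE-SAP. The WT FAEE-SAP libraries were the highest of all. The WT difference of 0.85 (SE 0.22) had an adjusted p of 0.0774 by limma and did not pass. As deposited, *Nfe2l2* did pass in limma, at 2.14 in WT after FAEE-SAP (adjusted p = 0.00138), -1.61 in cKO against WT with FAEE-SAP (adjusted p = 0.00977) and -1.20 for the difference of the responses (adjusted p = 0.0481). *Keap1* had means of 2.83 in WT saline and 3.56 in WT FAEE-SAP, and *Bach1*, which encodes a repressor of *Hmox1*, 2.55 and 2.20. None of the 12 regulators tested was called in WT after FAEE-SAP, with 10 above 0 and a median of 0.28. Over all genes tested there, 6.93% were called, 51.1% were above 0 and the median was 0.02, so 0 of 12 is near the share over all genes. None was called in the other comparisons, where at most 1.27% of all genes were.

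Other NRF2 targets split in WT after FAEE-SAP. Of 30 tested, 5 rose and 3 fell, with a median of 0.15, where 6.93% of all genes tested were called. The aldo-keto reductase gene *Akr1b8* was at 0.227 and 0.312 scaled RPKM in WT saline and 3.87 and 3.27 in WT FAEE-SAP, and rose by 3.38 (SE 0.25, adjusted p = 0.0032 by limma). In cKO it was at 0.372 and 0.257 with saline and 1.69 and 0.934 with FAEE-SAP, a difference of 1.70 with an adjusted p of 0.356 by limma. The efflux pump gene *Abcc3* rose by 1.68 and the microsomal glutathione transferase gene *Mgst1* by 1.62 in WT. The other two that rose, *Pgd* (1.23) and *Gsr* (1.01), make NADPH and reduce glutathione, and are named here after their values were seen. The glutathione transferase genes *Gstm2* and *Gstm1* fell by 2.88 and 2.22, and *Ggt1*, which breaks down glutathione outside the cell, fell by 2.08. As deposited the values were -1.57 for *Gstm2*, -0.90 for *Gstm1* and -0.77 for *Ggt1*, the last 2 under a 2-fold change. For the genes that rose they were 4.51 for *Akr1b8*, 2.90 for *Abcc3*, 2.92 for *Mgst1*, 2.49 for *Pgd* and 2.31 for *Gsr*. *Gstm2* and *Gstm1* are near copies whose reads may have been split between them. *Akr1b8* was called without either WT saline library and lay under the minimum level for a test without either WT FAEE-SAP library. Without WT FAEE-SAP replicate 2, *Gstm1* was still called, and *Abcc3*, *Mgst1*, *Pgd*, *Gsr*, *Gstm2* and *Ggt1* were not. *Mgst1* was also lost without WT saline replicate 1, *Abcc3* without that library or WT FAEE-SAP replicate 1, and *Pgd* and *Gsr* without any single WT library. Over 16 alternatives, these included, the call was lost in 10 for *Gsr*, 7 for *Pgd* and 4 for *Abcc3*. All 3 were lost without a filter, *Pgd* and *Gsr* also at a pseudocount of 1 and under the replicate block, and *Gsr* under quantile normalization, at an RPKM minimum of 2 and without an intensity trend as well. None of the targets was called in the other comparisons, where at most 1.27% of all genes were.

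Among the mitochondrial antioxidant and NADPH genes, 2 of 17 fell in WT after FAEE-SAP and the same 2 were higher in cKO than in WT with FAEE-SAP, where 6.93% and 1.27% of all genes tested were called. *Aldh1l2*, which makes mitochondrial NADPH from folate, was at 3.99 and 5.73 scaled RPKM in WT and 10.6 and 3.77 in cKO mice given saline, and at 0.130 and 0.258 (WT) and 4.70 and 2.09 (cKO) with FAEE-SAP. WT FAEE-SAP stood below every other library, at 0.262 and 0.497 RPKM as deposited, under the minimum of 0.5. The gene therefore entered both tests given next only through the groups where it was high. It fell by 4.20 in WT (SE 0.33, adjusted p = 0.00357 by limma) and was 3.63 higher in cKO than in WT with FAEE-SAP (SE 0.46, adjusted p = 0.0331 by limma). Both sizes depended on the processing, with -3.06 and 2.81 as deposited and -2.50 and 2.10 at a pseudocount of 1. *Mthfd2*, of the same mitochondrial folate pathway, fell by 2.07 in WT and was 1.58 higher in cKO than in WT with FAEE-SAP, against -0.77 and 0.64 as deposited, neither of which was called. Of the 17 genes tested in this list, these 2 were called in each of those comparisons and the other 15 were not. No gene of the list was called in the remaining ones, where at most 0.0719% of all genes were. The list medians were -0.46 for WT after FAEE-SAP and 0.28 for cKO against WT with FAEE-SAP.

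Among the other antioxidant enzymes, 1 of 19 rose and 2 fell in WT after FAEE-SAP, against 6.93% of all genes called. In cKO against WT with FAEE-SAP 1 of 20 was called, against 1.27% of all genes. *Prdx4*, the peroxiredoxin of the endoplasmic reticulum, was at 43.2 and 38.9 scaled RPKM in WT and 50.04 and 41.1 in cKO mice given saline, and at 8.84 and 10.0 (WT) and 25.02 and 23.3 (cKO) with FAEE-SAP. It fell by 2.12 in WT (SE 0.17, adjusted p = 0.00393 by limma) and was 1.34 higher in cKO than in WT with FAEE-SAP (SE 0.19, adjusted p = 0.0403 by limma). As deposited these values were -0.80 and 0.39, and neither was called. *Msrb1*, which repairs oxidised methionine, fell by 1.17 in WT, against a value of 0.15 as deposited. The glutaredoxin gene *Glrx* rose by 1.29, against 2.57 as deposited. The *Glrx* call was lost without any single WT library, and that of *Msrb1* without WT saline replicate 1 or either WT FAEE-SAP library. Both were lost without a filter too, *Glrx* under the replicate block, and *Msrb1* as deposited, under quantile normalization and without an intensity trend, which made 6 of 16 alternatives for *Glrx* and 7 of 16 for *Msrb1*. The genotype calls of *Aldh1l2*, *Mthfd2* and *Prdx4* were lost without either WT FAEE-SAP library, when no gene at all was called, and those of *Mthfd2* and *Prdx4* also without either cKO FAEE-SAP library, where *Aldh1l2* lay under the minimum level for a test. The *Aldh1l2* call was lost at a pseudocount of 1 too (adjusted p = 0.0511 in limma). All 3 were lost as well under quantile normalization, without a filter and without an intensity trend. None of the 8 tested sources of superoxide and nitric oxide was called in WT after FAEE-SAP, with all 8 above 0 and a median of 0.32, against 51.1% above 0 and a median of 0.02 over all genes tested. None was called in the other comparisons, where at most 1.27% of all genes were.

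**Figure D4:**
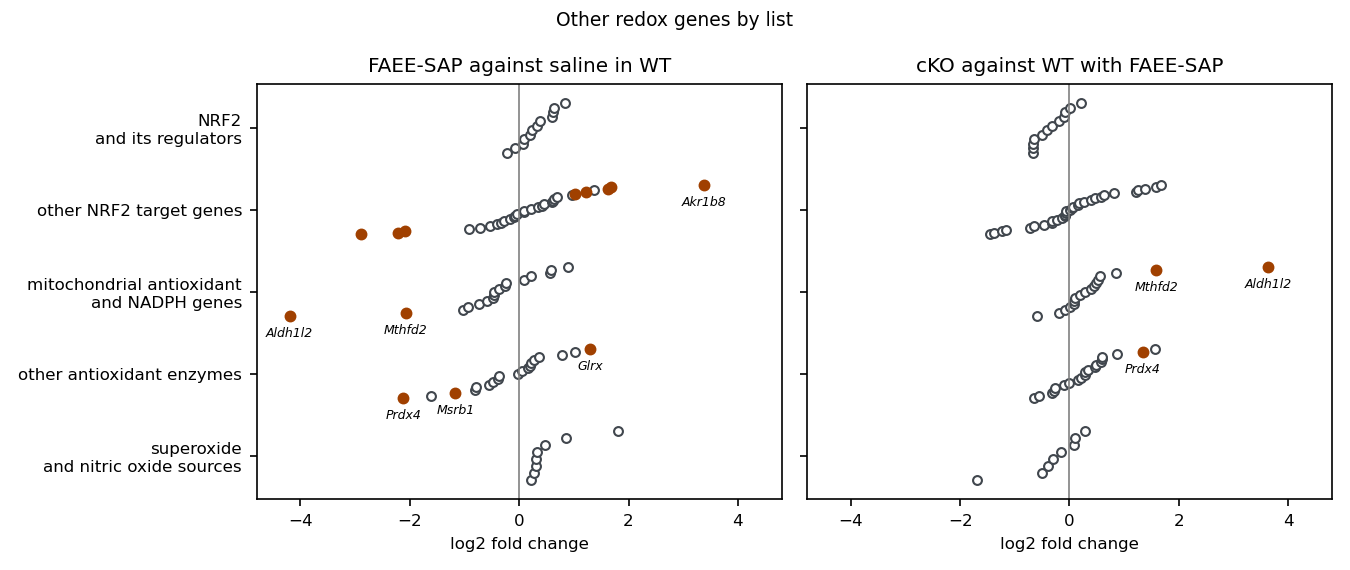
Log2 fold change (horizontal axis) of each tested gene of 5 redox lists, in WT after FAEE-SAP (left) and in cKO against WT with FAEE-SAP (right). Filled points passed the test, open points did not. *Aldh1l2* and *Mthfd2* stand at -4.20 and -2.07 on the left and at 3.63 and 1.58 on the right.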

How the data were processed

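Pancreas RNA of 8 libraries was prepared with a directional kit, and reads filtered with fastp were mapped to GRCm38.p6 in CLC Genomics Workbench. How RPKM were computed was not given in the sources used here. The authors deposited 1 file per library with RPKM per gene. Read totals were worked out from the steps of low values with GENCODE vM21 exon lengths (95.2% of genes matched), and 84.0% to 85.5% of values under 20 reads came out whole within 0.1 reads, so reads are approximate and were used in an added alternative alone.

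RPKM were divided by a median-of-ratios factor per library (0.618 to 2.01). Genes with at least 0.5 RPKM in 2 libraries of a comparison were tested on log2(scaled RPKM + 0.1) by empirical Bayes with an intensity trend (limma 3.58.1, R 4.3.3). Fold changes are on that scale, which understates changes of low genes. A gene was called at a Benjamini-Hochberg adjusted p under 0.05 where it also changed at least 2-fold. The scripts were tested on simulated data. Intervals and p-values rest on the spread between 2 libraries a group.

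The members and lists were chosen with earlier results of these data known. Named were the members, *Nfe2l2*, *Keap1* and *Bach1*, up to 3 genes called per direction, list and comparison, 5 tested genes on each side of *Nnt*, and the 5 genes most like *Nnt* and *Gclm*. Alternatives changed the scaling, filter, pseudocount, model and libraries.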

Additional observations from a re-analysis of the deposited data

How the results depend on the processing

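Of the 8 members other than *Nnt*, none was called in cKO against WT with saline under any alternative. Of the 991 recomputed values of single genes, 839 kept their direction and side of the threshold (for *Nnt*, which has no test, moved by less than the spread between libraries) and 44 changed sign. A further 74 lost a call, 15 gained one and 19, all of *Nnt*, moved by more than that spread. Genes not called in the main fit keep their side by staying uncalled, so the 839 does not measure how stable the calls were. Where the cause of a change is not given by the alternative itself, it was not tested. *Nqo1* had 5 to 34 reads per library, and the part of depth in its values was not tested.

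Without rescaling (values as deposited), 5 of the NRF2-type genes were called in cKO against WT with FAEE-SAP, 5 in WT after FAEE-SAP and 1 for the difference of the responses, and 8 of the 9 members were highest in WT FAEE-SAP rather than 5. Values as deposited that changed sign were, in cKO against WT with FAEE-SAP, *Nqo1* -0.67, *Gclm* -0.87 and *Slc7a11* -0.31. With saline they were *Hmox1* -0.056, *Gclc* -0.10 and *Srxn1* -0.035. In WT after FAEE-SAP they were *Nqo1* 0.99, *Gclm* 0.81, *Slc7a11* 0.58 and *Msrb1* 0.15, in cKO *Gclm* 0.21 and *Sod2* 0.52, and for the difference of the responses *Nqo1* -0.067 and *Gclm* -0.60. In WT 1 rather than 2 was called under quantile normalization, no filter, a pseudocount of 1, no intensity trend and the weighted model. In cKO after FAEE-SAP 2 passed by unadjusted p. Smaller shifts changed the sign of *Gclm* without a filter (-0.015 with FAEE-SAP, 0.012 with saline, -0.021 for the responses) and in 1 model of all libraries (0.022 with saline), of *Slc7a11* with saline at a pseudocount of 1 (0.00224) and of *Slc7a11* in cKO under quantile normalization (-0.077).

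Leaving out 1 library at a time gave 0 to 2 members called in WT and 0 in the other comparisons. The log2 values that changed sign ran, in cKO against WT with FAEE-SAP, from -0.34 to 0.57 for *Nqo1*, -0.12 to 0.21 for *Gclm*, -0.17 to 1.29 for *Slc7a11*, -1.55 to 0.11 for *Gclc* and -0.64 to 0.039 for *Srxn1*. With saline they ran from -0.27 to 0.60 for *Gclc*, -0.10 to 0.080 for *Gclm*, -0.084 to 0.48 for *Srxn1*, -0.075 to 0.47 for *Hmox1*, -0.62 to 0.78 for *Slc7a11* and -0.29 to 0.047 for *Sod2*. In WT they ran from -0.39 to 0.26 for *Nqo1* and -1.01 to 0.17 for *Slc7a11*, in cKO from -0.19 to 0.022 for *Sod2* and -0.79 to 0.94 for *Slc7a11*, and for the responses from -0.43 to 1.60 for *Slc7a11* and -0.11 to 0.21 for *Gclm*.

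Over all genes, cKO against WT with FAEE-SAP had 140 calls (95 higher, 45 lower), 4427 as deposited (73 higher, 4354 lower), 80 under quantile normalization (43 higher, 37 lower), 57 without a trend, 294 in 1 model, 924 by unadjusted p, 0 without a filter and 0 without either WT library. With saline it had 0, 2 as deposited, 1 under quantile normalization and 59 by unadjusted p. WT after FAEE-SAP had 755, 7270 as deposited (7184 higher, 86 lower), 259 without a filter, 1349 by unadjusted p and 97 to 491 without 1 library. cKO after FAEE-SAP had 5, 15 as deposited, 15 in 1 model, 280 by unadjusted p, 0 without a filter and 0 without cKO FAEE-SAP replicate 2. The responses had 8, 791 as deposited (21 higher, 770 lower), 25 under quantile normalization, 35 at an RPKM minimum of 2, 24 and 1 at pseudocounts of 1 and 0.01, 3 without a trend, 783 by unadjusted p, 0 without a filter, 0 under the replicate block and 0 to 4 without 1 library.

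Libraries of the same number shared only a number. Their deviations correlated at 0.304 (FAEE-SAP), -0.319 (saline), -0.175 (WT) and 0.399 (cKO). The replicate block gave 1 member (*Hmox1*) called in cKO after FAEE-SAP rather than 0. Over all genes it gave 568 in cKO against WT with FAEE-SAP, 442 in WT and 52 in cKO. Crossing the numbers, an alternative chosen after seeing the data, as was the weighted model, gave 0 genes with saline and 822 in WT.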

Other observations

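The genes most like *Gclm* over the 8 libraries, out of 11132 compared, were *Ccpg1* (Pearson r = 0.979), *Slc9a3r2*, *Surf1*, *Fam73a* and *Ptov1* (r = 0.971), given as a description with no p. *Ccpg1*, a receptor for autophagy of the endoplasmic reticulum, had means of 24.2 scaled RPKM in WT saline, 25.8 in cKO saline, 15.1 in WT FAEE-SAP and 18.2 in cKO FAEE-SAP, and *Surf1*, an assembly factor of cytochrome c oxidase, 4.47, 4.49, 3.35 and 3.38.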
